A study of Mus musculus with 2 samples.

Results

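The regions described are 492 windows of 1 Mb on mouse chromosomes 1 to 19 in which H3K36me3 ChIP-seq of embryonic stem cells gave no peak in either of 2 replicates. They were chosen by cutting each chromosome into adjacent 1 Mb windows from its start, leaving out the first 3 Mb and the incomplete last window, and keeping windows overlapped by no pseudoreplicate-supported peak of replicate 1 or of replicate 2. Of 2397 windows, 492 met this rule, or 20.5%. The absence of peaks is therefore how the windows were selected and not a result, and everything measured from the same peaks is given as a description, with no test.

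The cells were E14TG2a.4, a male embryonic stem cell line of mouse strain 129/Ola, labelled as embryonic with an age of 3.5 days. No treatment, mutation or second condition is named, and both samples belong to 1 group, so no condition could be compared. The replicates came from separate biosamples of the same line. Neither aligner nor peak caller nor read number was given in the sources used here, so the depth behind a window without peaks is unknown. The label of the cells was checked on markers: 8 of 8 stem cell genes, Pou5f1 and Nanog among them, had 35.4% to 82.0% of their bodies in peaks (mean of the replicates). Of 8 fibroblast genes, 5 were at 0 in both replicates (Col1a1, Col1a2, Col3a1, Thy1 and Postn), while Vim, Sparc and Fn1 were at 65.3%, 52.2% and 95.4%.

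H3K36me3, trimethylation of lysine 36 on histone H3, is placed by SETD2, an enzyme that travels with elongating RNA polymerase II, and it marks the bodies of transcribed genes. Genes that are silent or little transcribed in a cell type mostly lack it. Mammalian chromosomes also hold gene deserts, clusters of tandem-duplicated genes such as the olfactory receptors, and very long genes whose main use is in the nervous system.

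The sites closest to being peaks in these windows come from a separate, unthresholded peak set of each replicate, in which weak peaks were kept. The 8 pairs of overlapping weak peaks with the highest fold enrichment were taken, ranked on the lower fold of the pair, and 5 of them are shown as the 200 bases around the middle of the overlap, on the plus strand of GRCm38 (mm10). All 5 lie between coding genes, and their capitals mark each CG dinucleotide (CpG), the site of DNA methylation.
Weak peak 1, chr15:67023175-67023374: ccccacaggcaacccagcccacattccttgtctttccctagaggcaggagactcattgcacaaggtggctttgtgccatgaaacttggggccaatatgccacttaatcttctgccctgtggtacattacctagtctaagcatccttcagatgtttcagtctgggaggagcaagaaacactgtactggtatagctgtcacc
Weak peak 2, chr14:111119909-111120108: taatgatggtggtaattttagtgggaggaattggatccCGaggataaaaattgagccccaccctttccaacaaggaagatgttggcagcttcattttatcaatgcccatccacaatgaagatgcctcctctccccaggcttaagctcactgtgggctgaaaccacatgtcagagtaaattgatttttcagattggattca
Weak peak 3, chr5:68212758-68212957: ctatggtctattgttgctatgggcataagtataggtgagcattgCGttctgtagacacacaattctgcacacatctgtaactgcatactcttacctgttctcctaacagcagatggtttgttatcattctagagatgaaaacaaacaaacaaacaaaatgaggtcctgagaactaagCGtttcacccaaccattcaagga
Weak peak 4, chr6:44209560-44209759: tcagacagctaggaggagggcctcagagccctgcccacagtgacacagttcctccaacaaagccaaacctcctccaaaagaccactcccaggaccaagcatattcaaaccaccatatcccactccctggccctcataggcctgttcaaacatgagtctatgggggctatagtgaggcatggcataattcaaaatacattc
Weak peak 5, chr6:68812885-68813084: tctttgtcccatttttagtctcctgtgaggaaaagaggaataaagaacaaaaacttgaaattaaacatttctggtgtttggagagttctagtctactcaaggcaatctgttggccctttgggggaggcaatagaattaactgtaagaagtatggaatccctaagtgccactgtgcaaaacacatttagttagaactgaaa
The folds of weak peak 1 were 3.47 and 3.34 in replicates 1 and 2. Weak peak 2 lies inside the longest run of peak-free windows, and its folds were 3.23 and 3.34. Weak peaks 3, 4 and 5 had folds of 3.23 in replicate 1 and of 3.82, 3.34 and 3.26 in replicate 2. Only weak peaks 2 and 3 hold a CG within the printed bases. Of all adjacent 200-base stretches of chromosomes 1 to 19, 69.98% hold at least 1. Peak-free windows have fewer CpG than other windows (median 5.40 against 9.10 per kb), and the share for their own stretches was not computed. The letters CG read the same on both strands. The middle 32 bases of each of these peaks occur once in the genome in both replicates.

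Promoters of 2 genes are shown as examples of a neuronal and a receptor gene, picked by gene length. Lrp1b, a low-density lipoprotein receptor-related gene of the nervous system, is the longest coding gene lying wholly in peak-free windows. Olfr643 is the longest olfactory receptor gene that overlaps the windows, and lies partly inside the one at 103 to 104 Mb of chromosome 7. Its printed promoter lies outside that window, though within the 1.75 Mb stretch without peaks around it. Each stretch runs from 250 bases before to 50 bases after the annotated gene start, on the minus strand of GRCm38, with CG in capitals.
Lrp1b promoter, chr2:42653575-42653874: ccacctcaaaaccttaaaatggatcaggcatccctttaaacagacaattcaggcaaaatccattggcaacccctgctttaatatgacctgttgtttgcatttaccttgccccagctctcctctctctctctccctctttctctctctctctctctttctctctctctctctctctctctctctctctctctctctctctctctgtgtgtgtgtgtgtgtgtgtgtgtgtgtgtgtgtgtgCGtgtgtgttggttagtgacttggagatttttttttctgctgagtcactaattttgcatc
Olfr643 promoter, chr7:104137356-104137655: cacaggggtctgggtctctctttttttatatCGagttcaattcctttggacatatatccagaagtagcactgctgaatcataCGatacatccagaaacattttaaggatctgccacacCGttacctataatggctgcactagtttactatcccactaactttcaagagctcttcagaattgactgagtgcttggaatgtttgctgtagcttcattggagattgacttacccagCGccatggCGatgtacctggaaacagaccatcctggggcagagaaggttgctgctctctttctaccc
The Lrp1b stretch holds 1 CG beside a long tract of CT and GT dinucleotides, and the Olfr643 stretch holds 5. Neither is typical of its group: synaptic and neuronal genes in the windows had a median of 13 CG and chemosensory receptor genes of 1. At least 1 CG occurs in 94.9% of the 20780 autosomal coding gene promoters of this length.

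Most other windows were far from the threshold of the rule, and some were at its edge. The 1905 other windows held a median of 42 peaks in replicate 1 and 38 in replicate 2, with up to 276 and 260. At the edge of the rule, 96 windows held exactly 1 peak over both replicates, 23 of them from replicate 1 and 73 from replicate 2. Those 96 peaks had a median width of 334 bp and a median fold of 3.65 (range 2.12 to 5.28), and 32 of them overlapped a coding gene. All autosomal peaks had median widths of 734 and 726 bp and median folds of 4.37 and 5.001 in replicates 1 and 2. A window just outside the rule thus carried a peak narrower and lower than most.

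Each replicate alone left more windows empty than both together. Replicate 1 alone left 587 windows without a peak (24.5%) and replicate 2 alone 519 (21.7%). In 95 windows replicate 1 was empty while replicate 2 had a median of 1 peak and at most 6. In 27 windows replicate 2 was empty while replicate 1 had a median of 1 peak and at most 2.

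Just inside the rule, the windows with the most weak peaks (chosen after the values were seen) held between 1 and 6 coding genes. The window at 60 to 61 Mb of chromosome 3 had 6 weak peaks in replicate 1 and 8 in replicate 2. It holds Mbnl1, a splicing regulator, with Sucnr1, Aadac and Aadacl2. The next window of that chromosome, with the small GTPase gene Rap2b and the purinergic receptor gene P2ry1, had 5 and 8. The window at 70 to 71 Mb of chromosome 7, whose coding gene is the nuclear receptor gene Nr2f2, had 3 and 9. In each of these windows replicate 2 gave more weak peaks than replicate 1.

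The windows lay side by side in runs. The 492 windows formed 298 runs, of which 179 were single windows, 75 had 2 windows, 27 had 3, 10 had 4, 2 had 5, 4 had 6 and 1 had 8. In all, 313 windows (63.6%) had a peak-free neighbour. Measured from peak to peak on the same chromosomes, 497 gaps reached 1 Mb and together spanned 989 Mb, and 169 gaps reached 2 Mb. Of the 994 borders of the gaps of at least 1 Mb, taken at the last base of the bordering peak, 549 lay in a coding gene (55.2%), against 93.2% of all peaks of the 2 replicates.

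**Figure D1:**
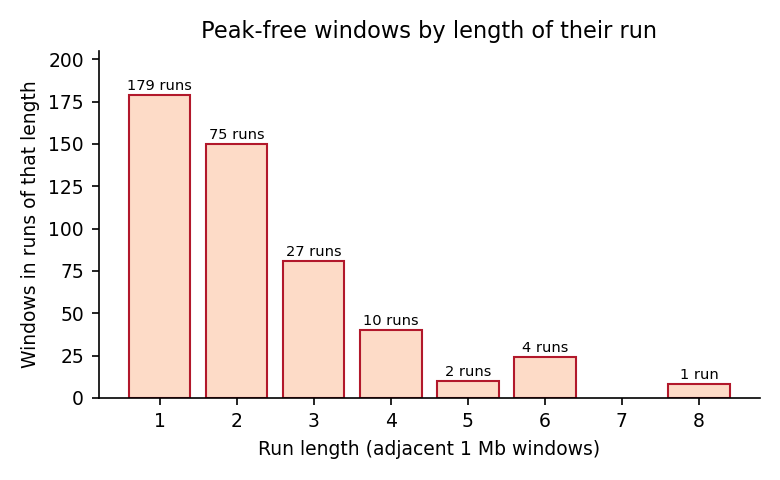
Peak-free windows by the length of their run: the x axis gives the number of adjacent 1 Mb windows in a run, the bars the number of windows in runs of that length, and the text above each bar the number of runs. Single windows (179) and pairs (75 runs) hold most of the 492 windows, and 1 run reaches 8 windows.

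The longest run covered 107 to 115 Mb of chromosome 14. Peaks of either replicate were absent from position 106108537 to 115042645, a stretch of 8.93 Mb. Its windows hold 4 coding genes: Slitrk1, Slitrk5 and Slitrk6, which encode transmembrane proteins of neurons that shape neurite growth and synapses, and Tpm3-rs7. The bordering peak on the left lies in Trim52, and the one on the right lies in no coding gene. The unthresholded sets gave 3 weak peaks there in replicate 1 and 9 in replicate 2.

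The runs of 6 windows lay on 4 other chromosomes. On chromosome 12, 92 to 98 Mb, the run lay in a 6.79 Mb stretch between Sel1l, an endoplasmic reticulum quality control gene covered by peaks to 57.5% and 58.0%, and Spata7, covered to 6.84% and 5.202%. Its only coding gene is Flrt2, a cell adhesion and guidance gene. On chromosome 16, 66 to 72 Mb, a 7.43 Mb stretch between Chmp2b and Robo1 holds Cadm2, Gbe1 and Speer2 within its windows. Robo1, the axon guidance receptor gene at its right border, was covered only to 0.0321% in replicate 1 and 0.0564% in replicate 2.

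On chromosome 2, 95 to 101 Mb, a 7.25 Mb stretch runs from Api5 to Traf6, both of which were marked: Api5 to 66.0% and 65.2% and Traf6 to 44.8% and 37.3%. Its windows hold Lrrc4c, which encodes a synaptic adhesion protein, and the predicted genes Gm10801 and Gm10800. On chromosome 8, 98 to 104 Mb, a 7.05 Mb stretch bordered by peaks outside coding genes holds the cadherin genes Cdh8 and Cdh11. Of these 5 longest runs, 4 hold a gene of synaptic or neuronal adhesion, from a list that was chosen with earlier results known. The run on chromosome 8 holds classical cadherins. Genes of the synaptic and neuronal list touched 18.1% of single peak-free windows and 12.7% of other windows. A run of many windows can hold such a gene by its length alone, and the share for other stretches of like length was not computed.

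Chromosomes differed in their share of peak-free windows. Chromosome 14 had the highest, 42 of 121 windows (34.7%), with 38.02% for replicate 1 alone and 34.7% for replicate 2 alone. Chromosomes 12, 16, 6 and 1 followed at 26.5%, 26.3%, 24.7% and 24.5%. Chromosome 9 had the lowest, 14 of 121 (11.6%), and chromosome 13 had 11.97%. In replicate 1 alone these lowest shares were 14.9% and 15.4%, and in replicate 2 alone 14.05% and 12.8%, so chromosome 14 was above both in either replicate.

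**Figure D2:**
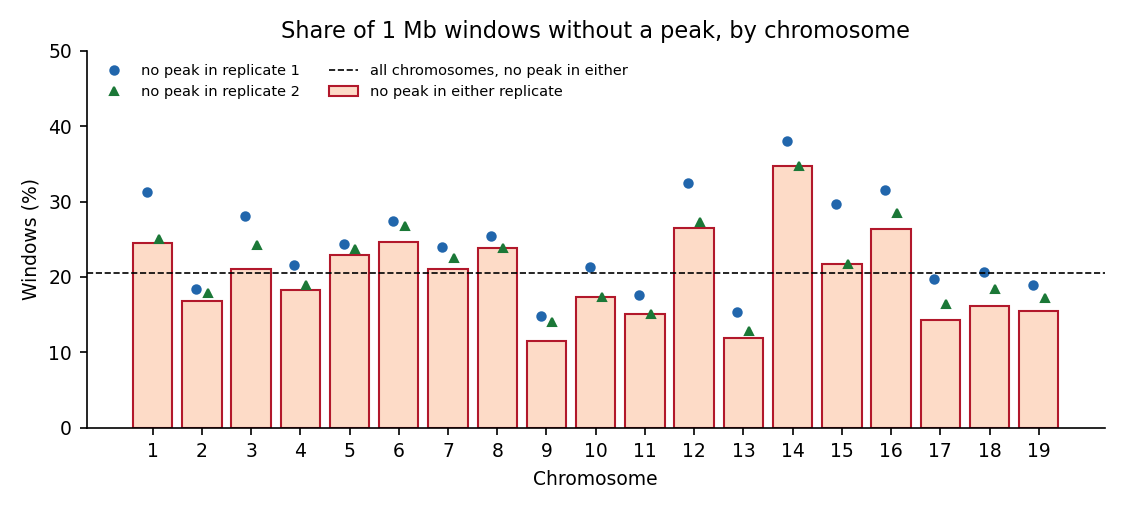
Share of complete 1 Mb windows without a peak on chromosomes 1 to 19 (y axis, percent of windows): bars count windows empty in both replicates, circles and triangles windows empty in replicate 1 or 2 alone, and the dashed line is 20.5%, the share over all chromosomes. Chromosome 14 is highest at 34.7% and chromosome 9 lowest at 11.6%.

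Peak-free windows held few coding genes. Their median was 1 protein-coding gene (quartiles 0 and 2, highest 60), and that of other windows 8 (quartiles 4 and 14, highest 69). No coding gene at all overlapped 142 peak-free windows (28.9%) and 66 other windows (3.46%). Immunoglobulin and T cell receptor gene segments are not protein-coding records and were not counted as coding genes. A further 249 peak-free windows (50.6%) held 1 or 2 coding genes, against 232 others (12.2%). Annotated coding genes spanned a median of 12.1% of a peak-free window and 48.1% of another window. Noncoding annotation differed less: the median number of pseudogenes was 3 against 4, and that of lincRNA genes 1 against 2.

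**Figure D3:**
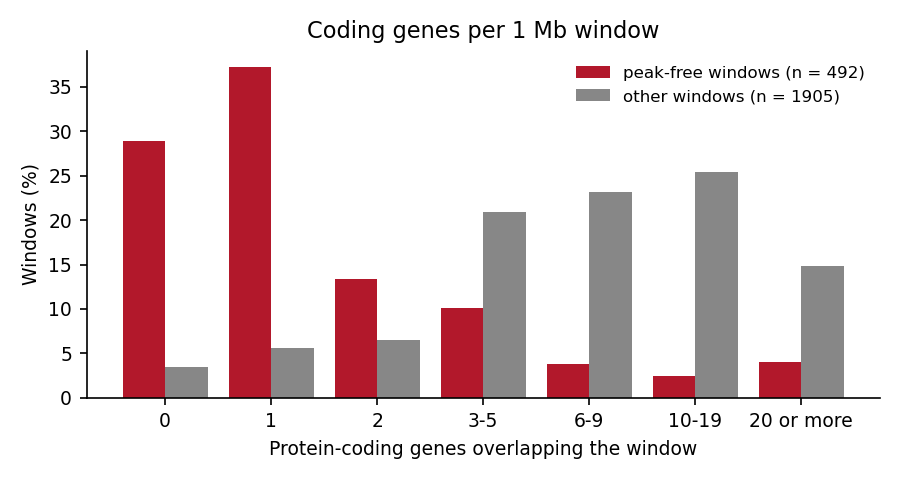
Protein-coding genes per 1 Mb window: the x axis gives the number of GENCODE M21 coding genes overlapping a window, the y axis the percent of the 492 peak-free windows (red) and of the 1905 other windows (grey). Peak-free windows pile up at 0 (28.9%) and 1 (37.2%), and a small share (4.07%) holds 20 or more.

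Every peak-free window was put in 1 class by its genes, in a fixed order. After the 142 without a coding gene, 18 windows held a chemosensory receptor gene, 22 a gene of another clustered family, 101 a synaptic, neuronal or cadherin-family gene, 14 a developmental transcription factor, 58 another gene of at least 500 kb, and 137 only other coding genes. The class of synaptic, neuronal or cadherin-family genes took 20.5% of peak-free windows and 12.2% of other windows. Another gene of at least 500 kb took 11.8% and 8.61%. The remaining named classes took less of the peak-free windows than of the others. These were chemosensory receptors (3.66% against 6.09%), another clustered family (4.47% against 5.77%) and developmental transcription factors (2.85% against 6.14%). Only other coding genes were found in 27.8% of peak-free windows and in 57.7% of the rest. The longest runs of windows that lacked both peaks and coding genes reached 3 windows, on chromosomes 5, 8, 12, 14 and 18.

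In all, 1352 of 20780 autosomal coding genes overlapped a peak-free window, or 6.51%, although the windows make up 20.5% of those examined. Of these, 1190 lay wholly inside, with a median length of 6.98 kb, and 162 lay partly inside, with a median of 313 kb. Genes outside the windows had a median of 18.2 kb. A gene wholly inside has no base in peaks by the rule. Over all autosomal coding genes, 48.7% had no base in peaks of either replicate, and most of these, 8795, lay outside the windows. Most coding genes without peaks were thus found outside the peak-free windows.

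Chemosensory receptors were the most numerous family. Here and in the lists that follow, a gene counts as inside when it overlaps a peak-free window, and the number wholly inside is added where it is smaller. These G protein-coupled receptors of the nose and tongue are expressed in sensory neurons and taste cells. They made up 27.4% of the coding genes in the windows and 7.28% of all autosomal coding genes. Of 1127 olfactory receptor genes, 269 were inside (23.9%), 265 of them wholly, of 328 vomeronasal receptor genes 82 (25%), 81 wholly, and of 35 bitter taste receptor genes 19 (54.3%). None of the 15 trace amine receptor or the 7 formyl peptide receptor genes was. These genes are tandem copies, so a few windows decide the counts: olfactory receptors lay in 7 peak-free windows and in 75 others, and receptors of all these families in 18 (3.66%) and 116 (6.09%). Of the 858 olfactory receptor genes outside the windows, 852 had no base in peaks either.

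The 3 windows richest in coding genes were all olfactory receptor clusters. The window at 103 to 104 Mb of chromosome 7 held 60 coding genes, 53 of them Olfr, and had no weak peak in either replicate. The window at 86 to 87 Mb of chromosome 2 held 50, with 49 Olfr and 1 weak peak in each replicate, and that at 88 to 89 Mb held 46, with 44 Olfr and no weak peak. The longest olfactory genes in the windows were Olfr643, Olfr1033 and Olfr1307. The longest vomeronasal genes there were Vmn2r102, Vmn2r79 and Vmn2r24, and Tas2r117, Tas2r102 and Tas2r131 led the bitter receptors.

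Several other clustered families of tissue-specific genes had a large share of their members in the windows. Of 26 genes of the prolactin family, hormones of the placenta and pituitary, 23 were inside, the longest Prl3a1, Prl7d1 and Prl7a2, in a pair of windows of chromosome 13. Of 34 secretoglobin genes, small secreted proteins of glands, 20 were inside, and of 22 major urinary protein genes, carriers of scent made by the liver, 10 (9 wholly). Defensins, antimicrobial peptides of gut and epithelia, had 33 of 64 genes inside, in 2 windows. Of these genes, 22 Defa and 9 Defb genes lay in the window at 21 to 22 Mb of chromosome 8. Mup6, Mup2 and Mup7, Scgb2b24, Scgb2b26 and Scgb2b15, and Defb1, Defb41 and Defb50 were the longest of these lists. Nearly all members outside the windows had no base in peaks either. This held for 3 of 3 prolactin, 13 of 14 secretoglobin, 12 of 12 major urinary protein and 30 of 31 defensin genes. The secretoglobin, major urinary protein and most defensin genes lay in windows of repeated sequence: in windows where at least 50% of sampled 32-base words occur once in the genome, an alternative chosen after seeing the data, 0 of the 20, 0 of the 10 and 2 of the 33 were left, and all 23 prolactin genes were. In the same windows 269 olfactory, 19 bitter taste and 18 vomeronasal receptor genes were left. The part of read placement in these counts was not tested.

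Skin and immune families were split. The Skint genes, selection factors for skin T cells listed with butyrophilin-like genes, had 8 of 17 inside, led by Skint5, Skint6 and Skint4. Killer cell lectin-like receptors, which are natural killer cell receptors, had 8 of 26 inside, with Klra4, Klra1 and Klra7 the longest, and 0 in the windows of at least 50% unique words. Keratin-associated proteins of hair had 16 of 57 inside, and the 41 outside had no base in peaks either. Of the 53 keratins themselves and of the 36 small proline-rich and late envelope proteins, 0 were inside, although 50 and 36 of them had no base in peaks. C-type lectins had 7 of 30 inside (6 wholly), led by Clec4a2, and serpins 9 of 60 (8 wholly), led by Serpinb3b.

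Families of sugar-transferring and oxidizing enzymes differed in the same way. Of 22 genes named Ugt, most of which encode UDP-glucuronosyltransferases, 9 were inside. The longest was Ugt8a, the galactosyltransferase of myelin lipids, followed by Ugt2a1 and Ugt2b36. Of 87 cytochrome P450 genes of families 2, 3a and 4, 0 were inside, and 78 of them had no base in peaks. Zscan4, a cluster known from a rare 2-cell-like state of stem cell cultures, had 7 of 8 genes inside, with Zscan4-ps3, Zscan4c and Zscan4-ps2 the longest. Speer, a family of genes expressed in testis, had 7 of 10 inside. In windows of at least 50% unique words, 0 of the 7 Zscan4 and 6 of the 7 Speer genes were left. Reads from near-identical copies may not be placed uniquely.

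**Figure D4:**
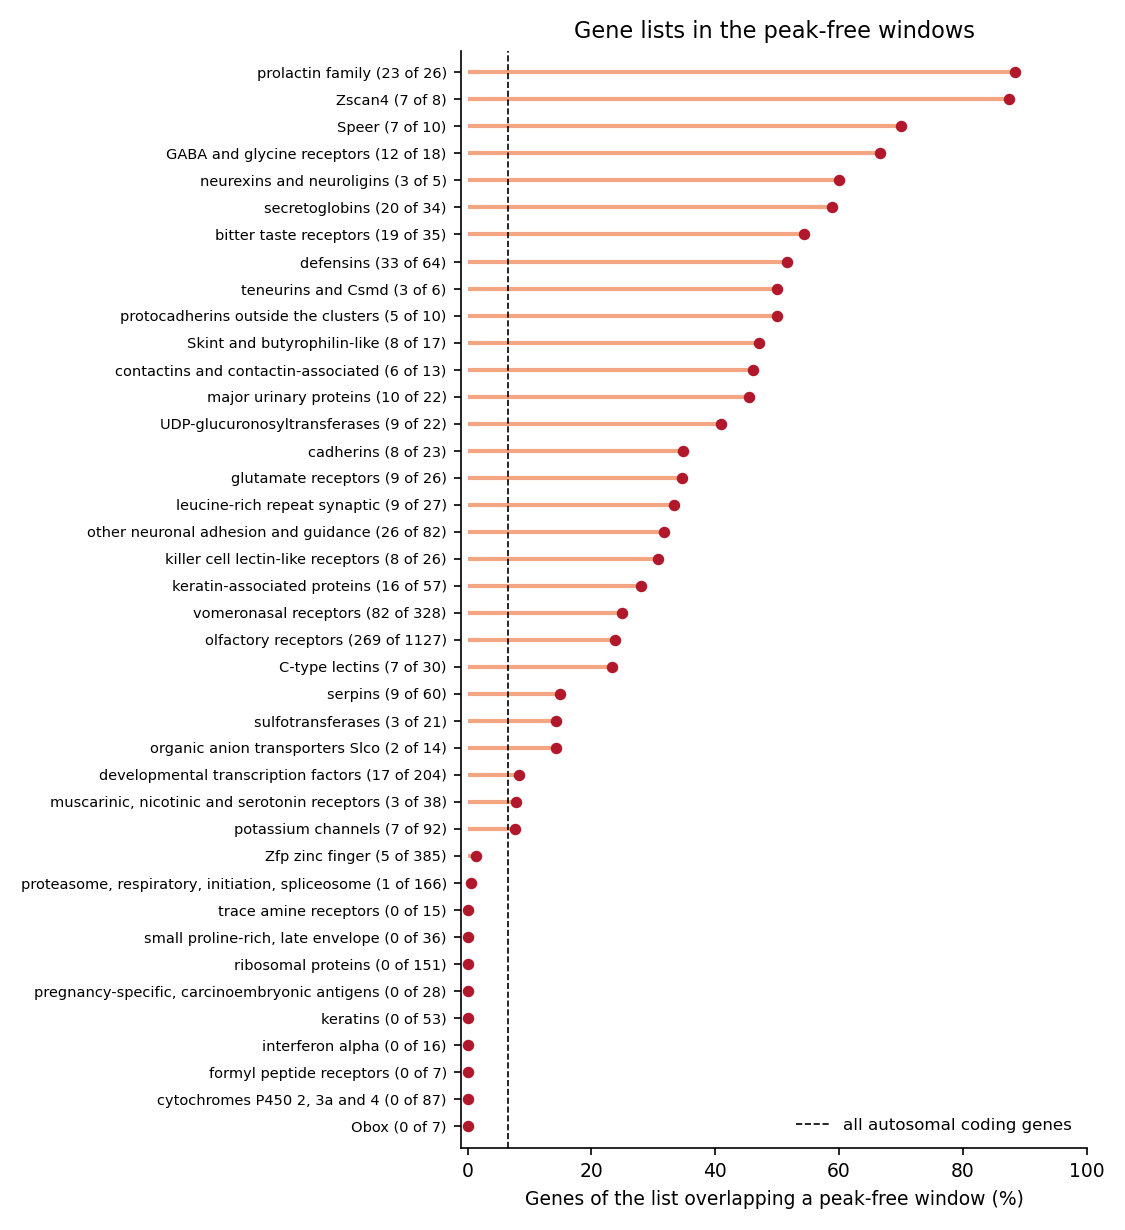
Share of each gene list that overlaps a peak-free window (x axis, percent of the list's autosomal genes), for lists of at least 5 genes, with the number inside and the list size beside each name; the dashed line is 6.51%, the share over all autosomal coding genes. The prolactin family (23 of 26) and Zscan4 (7 of 8) are highest, though the 7 Zscan4 genes lie in windows with under 50% unique words, and lists such as ribosomal proteins (0 of 151) and keratins (0 of 53) are at 0.

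Genes of the synapse formed another group, and they were spread over many windows. The list of synaptic and neuronal genes made up 5.77% of coding genes in the windows and 1.48% of all. It touched 89 peak-free windows (18.1%) and 242 others (12.7%). Of its 307 genes, 78 were inside, 47 of them wholly. Length enters these shares: the median was 57.2 kb for the list and 17.6 kb for all autosomal coding genes. No base in peaks was found in 75 of the 78 inside and in 144 of the 229 outside. Of 18 genes for GABA and glycine receptors, the inhibitory ion channels of the brain, 12 were inside, 9 of them wholly. Gabrb1, Gabra2, Gabrg1 and Gabra4 shared a run of 2 windows on chromosome 5.

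Excitatory receptors and adhesion molecules showed intermediate shares. Of 26 glutamate receptor genes, 9 were inside but only 4 wholly; Grm7 lay wholly and Grm8 partly inside. Of 13 contactins and contactin-associated genes 6 were inside and 2 wholly, and of the longest 3, Cntnap2 and Cntn4 were inside in part and Cntnap5a wholly. Nrxn3, a presynaptic neurexin gene, and Nlgn1, a postsynaptic neuroligin gene, were each inside in part. Leucine-rich repeat synaptic genes had 9 of 27 inside (8 wholly), with Lrrc4c, Lrrtm4 and Lrfn5 the longest. Cadherins had 8 of 23 inside (6 wholly), led by Cdh12, Cdh18 and Cdh8. Protocadherins outside the clusters had 5 of 10 (4 wholly), led by Pcdh15, which is inside in part, and Pcdh9 and Pcdh7. Neuronal adhesion and guidance genes had 26 of 82 inside and 17 wholly, the longest being Ptprd, inside in part and with bases in peaks of both replicates, Lsamp, inside in part, and Lrp1b, wholly.

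Ion channels and transcription factors of development were nearer the share of all genes. Potassium channels had 7 of 92 genes inside (7.61%), 4 of them wholly, with Kcnma1, Kcnh8 and Kcnh5 the longest, and muscarinic, nicotinic and serotonin receptors 3 of 38 (7.89%: Chrm2 wholly, Chrm3 and Htr7 in part). Developmental transcription factors had 17 of 204 (8.33%), 14 of them wholly, with Sox6, Foxp2 and Zfpm2 the longest. They lay in 15 peak-free windows (3.05%) and 143 others (7.51%). Of the 187 outside, 153 had no base in peaks. Several of those inside, named here after their values were seen, stand in windows with few other genes: the neural crest and cartilage regulator Sox9 shares a run of 2 windows on chromosome 11 with the potassium channel genes Kcnj16 and Kcnj2, and Sox11 one on chromosome 12 with 3 other genes.

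Genes used by every cell were nearly absent from the windows. Of 151 ribosomal protein genes, 0 were inside. Of 166 genes for the proteasome, respiratory chain, initiation factors and spliceosome, 1 was, and only in part: Snrpn, at an imprinted locus of chromosome 7. Of 385 Zfp zinc finger genes, many of which lie in large clusters, 5 were inside (1.30%), led by Zfp804b, Zfp521 and Zfp804a. Families outside the fixed lists were looked for after the values were seen. All 5 Csn casein genes, all 4 genes with the stem Cts followed by a number, all 4 Lipo genes and 6 of 7 Reg genes were inside, and 268 of the 1352 genes carried Gm numbers of predicted genes.

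Very long genes were more common in the windows than genes at large. Of 218 autosomal coding genes of at least 500 kb, 39 lay wholly inside (17.9%) and 61 in part, while 5.73% of all coding genes lay wholly inside. A gene of such length touched 126 peak-free windows (25.6%) and 254 others (13.3%). A long gene spans more windows and must lack peaks over its whole length to lie wholly inside, so length itself enters these shares. Among the 55 genes of at least 1 Mb, 12 lay wholly inside.

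Of the 10 longest genes wholly inside, 9 are described. The longest was Lrp1b, 2058 kb on the minus strand of chromosome 2 (40595246 to 42653624), with 1 weak peak in replicate 1 and 4 in replicate 2. Lrrc4c, 1313.5 kb on chromosome 2, had 1 in each replicate. Tenm2, a teneurin of 1229 kb on chromosome 11, and Csmd3, 1211 kb on chromosome 15, had 0 in both. Over more than a megabase each, these genes had at most a few weak peaks.

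The next in length were Cdh12 (1140 kb) with 0 and 2 weak peaks, and the sarcoglycan gene Sgcz (1139 kb) with 0 and 1. Ctnna2, a neuronal alpha-catenin of 1098 kb, Dcc, the netrin receptor of 1097 kb, and Erbb4, a neuregulin receptor of 1076 kb, had 0 in both replicates. Of these 9 genes, 5 had no weak peak in either replicate.

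Some long genes crossed the border of a run and carried peaks only beyond it. Of the 162 genes partly inside, 22 had a base in peaks and 140 (86.4%) had none, against 48.7% of all autosomal coding genes without one. The rule enters this contrast, since part of each of these genes lies in windows chosen to hold no peak. The genes partly inside are also longer than coding genes at large. Cntnap2, a contactin-associated gene of 2245 kb on chromosome 6, had 1941 kb in peak-free windows and was covered to 0.180% and 0.149%. Ptprd, a receptor phosphatase gene of 2271 kb, had 1212 kb inside and was covered to 0.0193% and 0.0197%. Auts2, with 543 kb of 1106 kb inside, was covered to 1.83% and 1.98%. Only Gm38393, on chromosome 7, reached a coverage of 10% in both replicates, at 19.7% and 27.1%. That is 0.617% of the genes partly inside, against 38.4% of all autosomal coding genes, and the rule enters this contrast in the same way. Only 5.06 kb of the 30.9 kb of Gm38393 lay in a peak-free window.

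Weaker evidence of the mark in the windows was looked for in the unthresholded sets, which come from another alignment run than the peaks of the rule. They are still peaks of the same libraries, so they describe the windows and are no independent test. At least 1 weak peak of each replicate, overlapping or not, was found in 84 of 492 peak-free windows (17.1%). The same held for 98.1% of other windows and 81.5% of all windows. No weak peak of either replicate was found in 259 peak-free windows (52.6%) and in 2 others. Replicate 1 gave 159 weak peaks in 100 windows and replicate 2 gave 463 in 217 windows, or 0.323 and 0.941 per window, against 95.4 and 94.8 per window elsewhere. Replicate 2 thus had more weak peaks than replicate 1 in peak-free windows and about as many elsewhere.

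The weak peaks inside were low, narrow and mostly not shared. The rule largely fixes this, since windows with a supported peak were left out. In other windows the unthresholded sets also hold strong peaks, with folds up to 21.9 in replicate 1 and 29.0 in replicate 2. The weak peaks inside had a median fold of 2.69 in replicate 1 and 2.83 in replicate 2, against 3.41 and 3.78 in other windows. Their median width was 210 and 209 bp, against 430 and 382 bp. Only 54 of 159 weak peaks of replicate 1 (34.0%) overlapped one of replicate 2, and 56 of 463 of replicate 2 (12.1%) overlapped one of replicate 1, against 72.1% and 83.5% in other windows. Coding genes overlapped 24.5% and 20.5% of them, against 91.2% and 90.4% elsewhere. Their middle 32 bases occurred once in the genome in 97.5% and 93.1% of cases, against 97.8% and 97.6% elsewhere.

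The overlapping pairs numbered 57, in 43 windows. Of the 8 with the highest lower fold, 5 are printed above; another lies on chromosome 18, with folds of 3.28 and 5.04, and 1 on chromosome 7 in the lincRNA gene Gm29683, with 3.23 and 3.53. The last of the 8 is the only one in a coding gene: Man1a, a Golgi mannosidase gene on chromosome 10, with folds of 3.11 and 3.60. Many of the folds are equal to the last digit, such as 3.23 in replicate 1. Of the 1190 genes wholly inside, 13 had a weak peak in both replicates and 42 in either.

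Measured against gene length, weak peaks reached 10% of a gene in both replicates in 2 genes only, and both are at the edge of 1 window of chromosome 7. Gm38393 was covered to 31.8% and 38.5% and Snurf, which shares the imprinted Snrpn locus, to 14.6% and 16.2%, bases outside the window included.

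The DNA of the windows differed from that of other windows in measures the rule did not use. The median GC content was 38.1% (quartiles 37.0% and 39.6%) against 42.6% (40.3% and 45.0%). Of peak-free windows, 447 (90.9%) lay below 41.7%, the median of all windows, and 751 others (39.4%) did. The density of CpG was 5.40 per kb against 9.10. Soft-masked repeats covered 38.6% of bases against 30.4%. The ranges overlapped in each measure: GC reached 46.4% in a peak-free window and went down to 35.9% in another window.

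**Figure D5:**
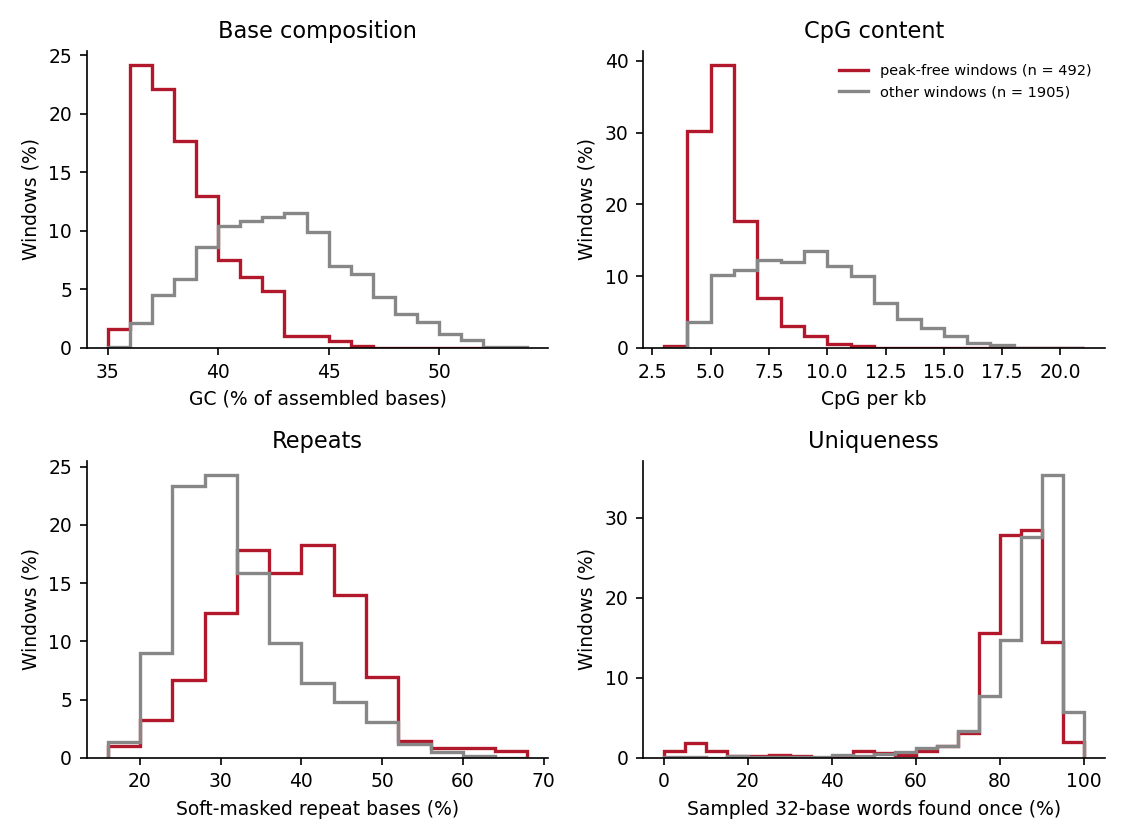
Sequence of the 492 peak-free (red) and 1905 other windows (grey), as percent of windows of each kind (y axes): GC content, CpG per kb, soft-masked repeat bases and the share of sampled 32-base words found once in the assembly (x axes). Peak-free windows sit lower in GC (median 38.1% against 42.6%) and CpG (5.40 against 9.10 per kb) and higher in repeats (38.6% against 30.4%), with fewer unique words (83.8% against 88.5%).

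Windows without a coding gene were low in GC whether or not they held peaks, with medians of 37.2% for those that were peak-free and 37.5% for those that were not. Among windows with a synaptic, neuronal or cadherin-family gene the medians were 37.7% and 44.4%, and among those with another gene of at least 500 kb 39.5% and 41.5%. Peak-free windows with a developmental transcription factor had the highest GC of the classes, 40.2%, the lowest share of repeats, 29.4%, and the most CpG, 6.86 per kb. Those with chemosensory receptors had the highest share of repeats, 49.7%, followed by those with another clustered family at 43.0% and those without coding genes at 42.5%.

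How far a read could be placed in the windows was gauged by sampling 32-base words and counting their copies in the assembly. A median of 83.8% of words occurred once in peak-free windows and 88.5% in others. Under 50% were unique in 26 peak-free windows (5.28%) and 28 others (1.47%), and under 25% in 19 and 9. The run of 4 windows at 3 to 7 Mb of chromosome 14, with 84 coding genes that mostly carry Gm numbers, had 5.38% unique words and no weak peak in either replicate. Another run of 4 on the same chromosome, 41 to 45 Mb with 82 coding genes, had 21.6%. The window at 22 to 23 Mb of chromosome 7, with 13 vomeronasal receptor genes among 27, had 0.5%, the lowest. At such sites peaks may be missing because reads were not placed, which was not tested; without the 26 windows, 466 remained, and the longest run was still 8 Mb.

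Promoter CpG separated the gene groups of the windows. All 1352 genes that overlap a window are included, also those whose start lies outside it. Over the 300 bases around the start, coding genes in peak-free windows had a median of 2 CpG, and 66.0% of them had 3 or fewer, against 13 and 22.4% for other coding genes. The chemosensory receptors had a median of 1 inside and 1 elsewhere. Synaptic and neuronal genes had 13 inside and 12 elsewhere, developmental transcription factors 19 and 16, and genes of at least 500 kb 13.5 and 17. The other clustered families had 1 inside and 2 elsewhere. The 887 genes inside that are neither chemosensory, synaptic and neuronal nor developmental transcription factors had a median of 3, and 59.5% of them had 3 or fewer.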

How the data were processed

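H3K36me3 ChIP-seq of 2 replicates was deposited as peak lists on mm10, per the labels, with no read counts; the aligner, caller, read length and depth were not given in the sources used here. Each deposited peak carries a fold enrichment, a ratio over background made by the authors, and p-values and q-values that the authors wrote as −log10. These values were used only to rank, filter or describe peaks. The rule rests on the peaks that the authors called per replicate and supported by pseudoreplicates (divisions of 1 library's reads). The deposited unthresholded sets, called weak peaks here, come from another alignment run. The archived set on mm9 was not used here. Read placement depends on the reference, strain C57BL/6J, which is not the strain of the cells.

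Windows, runs, gaps and overlaps of at least 1 bp were computed with Python 3.11.15, numpy 2.4.6 and pandas 2.3.3, and the functions were tested on simulated data with known answers. Genes are the protein-coding records of GENCODE M21 on GRCm38; for a repeated symbol the longest record was kept, which left out 27. Base composition, soft-masked repeats, promoters (250 bases before to 50 after a gene's outermost start) and the copies of 100 sampled 32-base words per 0.5 Mb were read from GRCm38.p6, numba 0.67.0 being used for the copies.

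Named are the 5 longest runs with borders and genes, the 10 longest genes wholly inside, the 3 windows with most coding genes, up to 3 genes by length of each list with 5 or more genes inside, the 8 shared weak peaks of highest fold, and genes covered to 10% by weak peaks in both replicates; some genes that this rule names are not reported here. The members and gene lists were chosen with earlier results of these data known. No test was made, since the rule used the peaks and there is 1 group. Alternatives were each replicate alone, stricter or other peak sets, other window grids and sizes, assembled or unique windows only, and other ways of assigning genes.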

Additional observations from a re-analysis of the deposited data

How the results depend on the processing

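Of 111 alternative values over 9 results, 77 stayed within 1.5 times (counts) or within 1 SD of the values for each replicate alone, and 34 moved. The number of windows was 519 to 587 and of runs 311 to 334 with either replicate left out; the longest run was 8 Mb in both cases. The pooled set also left 492 windows empty, of which 451 were the same. Without any weak peak of either replicate the windows fell to 261, the longest run to 5 Mb and the share without a coding gene to 27.2%. Windows of 0.5 Mb gave 1727, 8.5 Mb and 37.9%, and windows of 2 Mb gave 107, 6 Mb and 14.95%. Counting only peaks of −log10 q of at least 5 gave a longest run of 9 Mb. The share without a coding gene was 28.1% to 29.1% with a replicate left out, 30% with the replicated set of the same run, 26.4% on a grid moved by 0.5 Mb, 37.4% with genes assigned by their start, and 30.04% in windows of at least 50% unique words, an alternative chosen after seeing the data. The chemosensory share of coding genes was 26.1% to 30.6% with a replicate left out, 24.1% with the replicated set of the other run, 23.5% on the moved grid, 30.7% for genes wholly within and 31.6% in the more unique windows. The share of windows with a weak peak in both replicates was 21% to 25.2% with a replicate left out, 23.9% with the stricter peaks, 8.96% with the replicated set of the other run, and 8.74% when the 2 weak peaks had to overlap. Median GC moved only within 37.98% to 38.1%: it was 38.1% with either replicate left out, with the stricter peaks, with the pooled set and with the replicated set of the same run, and 38.04% on the moved grid and 37.98% in the more unique windows. Soft-masked bases were 38.4% to 38.7% with a replicate left out, 38.4% with the stricter peaks and 37.9% in the more unique windows. The median of coding genes per window was 1 in every alternative run. The causes of these moves were not tested, beyond the changed window size, peak set or gene rule itself.

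No paired analysis was possible because the samples form 1 group and the results come from no test. The depth of the libraries is unknown, so a window without peaks shows only that none was called at this depth. A window is also a coarse unit: a gene can lack peaks in a window that another gene fills.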

Other observations

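The X chromosome was left out by the rule, and male cells carry a single copy of it. By the same criterion 83 of its 168 windows were peak-free (49.4%), against 20.5% on chromosomes 1 to 19, with 90 for replicate 1 alone and 86 for replicate 2 alone. Only 9 of the 83 held no coding gene. The longest runs reached 12 windows. The run at 24 to 36 Mb held 48 coding genes, most of the longest named by Gm numbers, and that at 118 to 130 Mb held 25, with Diaph2 and the protocadherin gene Pcdh11x the longest. A run of 7 windows at 61 to 68 Mb held Slitrk4 and Slitrk2, of the same gene family as Slitrk1, Slitrk5 and Slitrk6 in the longest autosomal run. A median of 74% of sampled words were unique in the peak-free X windows and 80.0% in its other windows; the parts of copy number and of read placement were not tested.

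The reverse case, peaks without a coding gene, was found in 66 autosomal windows, which held a median of 1 peak in each replicate. The window at 62 to 63 Mb of chromosome 15 stood far above the others, with 110 peaks in replicate 1 and 103 in replicate 2. The long noncoding RNA gene Pvt1 is the longest gene there. The next window, at 113 to 114 Mb of chromosome 1, had 12 and 13.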
